A study of Danio rerio with 15 samples.

Results

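The comparison described here sets zebrafish embryos without nup133 directly against embryos with extra nup133. It uses 6 of the 15 libraries of the series, 3 of the line labelled MZnup133 (genotype given as a nup133 knockout, with MZ read as maternal-zygotic) and 3 of the line labelled Tgnup133 (genotype given as transgenic overexpression of nup133), each with 1 library at 3, 4 and 4.5 hours post fertilization (hpf). Libraries were paired by stage, and the wildtype library of the same control set at each stage (the nup133 set) served as the intermediate dose. The remaining libraries, a second wildtype series kept as the control for another line (the elys set) and that line, Melys, an elys knockout, entered the fit for its estimate of spread, and the second wildtype series also served as another intermediate. All samples were poly(A) RNA of whole dechorionated embryos. The labels used here give neither the promoter of the transgene nor the allele of the knockout, the strain or the clutches the embryos came from.

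Nup133 is a scaffold protein of the nuclear pore complex, the channel through which proteins and RNA pass between nucleus and cytoplasm. It belongs to the Y-complex, the ring-forming subassembly of the pore. In the first hours of development the zebrafish embryo lives on RNA supplied by the mother, and at zygotic genome activation (ZGA) its own genes are switched on while much of the maternal RNA is degraded. The series asks how loss or gain of nuclear pore proteins bears on this switch, and the comparison of MZnup133 with Tgnup133 asks which transcripts follow the nup133 level across 3 doses.

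Levels are FPKM, fragments scaled by transcript length and by the mapped fragments of the library, and differences between lines are on the log2(FPKM + 1) scale, which understates the change of low genes. One difference per gene was fitted over the 3 stages, and a gene was called at an adjusted p under 0.05. With 1 library per line at each stage, the 3 stages stand in for repeats and p-values reflect no more than the spread among these libraries, which the labels do not tie to separate clutches. A gene was taken to be in order when wildtype lay strictly between MZnup133 and Tgnup133 at all 3 stages in the same direction and the gene was called. It is described as rising when it went up from MZnup133 through wildtype to Tgnup133, and as falling when it went down. Relative depth, read from the smallest steps of the FPKM values, ranged from 0.917 to 0.979 in MZnup133, from 1.072 to 1.485 in Tgnup133 and from 0.883 to 1.404 in nup133 set wildtype, whose 3 hpf library was set to 1.

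The nup133 transcript (ENSDARG00000010078) followed the labels. It stood at 0.431, 0 and 0.208 FPKM in MZnup133 at 3, 4 and 4.5 hpf, at 12.6, 13.1 and 11.7 in wildtype, and at 18, 18.4 and 16.4 in Tgnup133. The 3 lines did not overlap, and wildtype of the elys set, at 9.35, 11.6 and 11.6 FPKM, also lay in between. MZnup133 was lower than Tgnup133 by -3.95 ± 0.21 (SE, log2, adjusted p = 6.24e-06). The upper step was small beside the lower one: Tgnup133 exceeded wildtype by 0.46 ± 0.21, which did not pass the test (adjusted p = 0.34), whereas MZnup133 was below wildtype by -3.49 (adjusted p = 1.3e-05). The dose range examined therefore runs from nearly no nup133 transcript to less than 2 times the wildtype level.

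Across the 13493 genes tested, 2561 (19.0%) were higher and 1298 (9.62%) were lower in MZnup133 than in Tgnup133. Most of that contrast lay between MZnup133 and wildtype, where 1846 genes (13.7%) were higher and 1122 (8.32%) lower. Between Tgnup133 and wildtype, 108 genes (0.8%) were higher and 155 (1.15%) lower. These last comparisons share the wildtype libraries. The median difference over all genes tested was 0.20 in favour of MZnup133, and scaling the libraries by median ratios brought it to 0.003, so differences of this size are read against that shift. The number of calls depended on the stages in the fit. Without 4 hpf 136 genes were called higher and 122 lower, without 4.5 hpf 482 and 365, and without 3 hpf 3446 and 1726. The stages stand in for repeats, and these fits had 3 residual degrees of freedom in place of 6. The counts therefore do not tell at which stages the differences lay.

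Genes at least 1 apart on the log2 scale were counted, which is a description with 1 library of each line at a stage. In unscaled levels they became more numerous with time mainly on the side of MZnup133. At 3 hpf 1356 genes (10%) were above Tgnup133 and 1108 (8.21%) below it. At 4 hpf the counts were 2622 (19.4%) above and 1461 (10.8%) below, and at 4.5 hpf 3749 (27.8%) above and 1407 (10.4%) below. With median-ratio scaling the counts grew on both sides, from 1247 above and 1134 below at 3 hpf to 2005 and 1732 at 4 hpf. At 4.5 hpf they were 2461 above and 2175 below. Of the 1392 genes past this difference at both 3 and 4 hpf, 1222 kept their direction, and of the 2829 past it at both 4 and 4.5 hpf, 2732 did. At all 3 stages 588 genes were above and 290 below.

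Wildtype lay between the MZnup133 and Tgnup133 libraries in 37.8% of all genes tested at 3 hpf, in 47.5% at 4 hpf and in 48.3% at 4.5 hpf. Tgnup133 was the intermediate line in 36.7%, 32.9% and 35.0%, and MZnup133 in 20.7%, 17.7% and 14.5%. With the elys set wildtype in place of the other, the wildtype share was 35.7%, 46.4% and 53.2%. The order with MZnup133 highest was held by 20.2%, 29.6% and 32.9% of genes at the 3 stages, and the order with MZnup133 lowest by 17.6%, 17.9% and 15.4%. In these unscaled levels the growth of the ordered share with stage was on the side of genes that fell with nup133 level. Over the same stages the median of MZnup133 minus Tgnup133 over all genes tested went from 0 to 0.19 and 0.37. Whether the growth holds after median-ratio scaling was not tested.

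**Figure D1:**
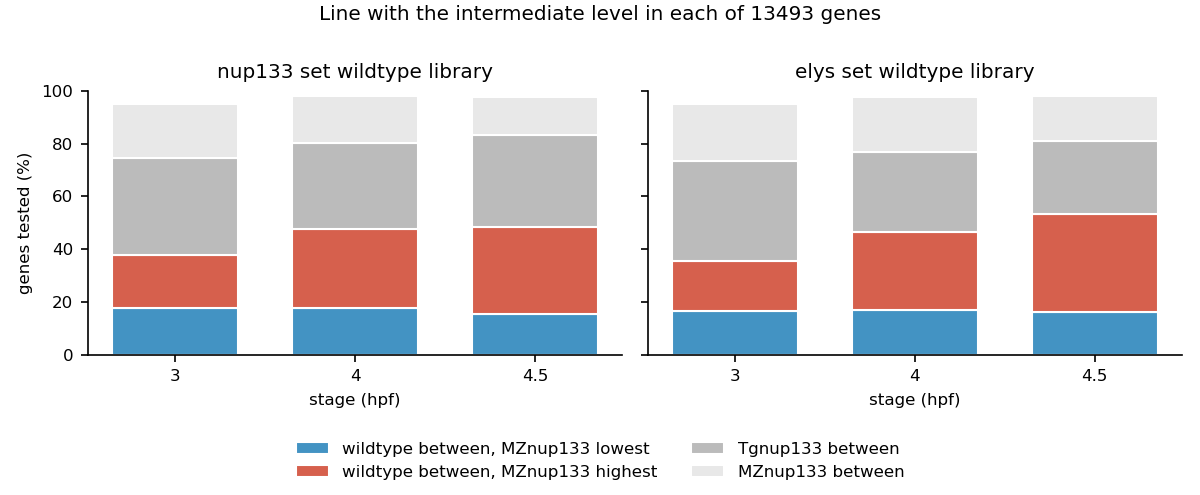
Stacked bars give the percentage of the 13493 genes tested, at each stage in hpf, for which wildtype, Tgnup133 or MZnup133 had the intermediate level, with the wildtype library of the nup133 set on the left and of the elys set on the right; genes with tied values make up the remainder. The share with wildtype between the other lines and MZnup133 highest is 20.2% at 3 hpf and 32.9% at 4.5 hpf on the left.

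Among called genes, 373 (2.76% of those tested) were in order and rising and 779 (5.77%) were in order and falling, together 29.9% of the called genes. The count moved when 1 stage was left out, to 59 rising and 89 falling without 4 hpf and to 964 and 1848 without 3 hpf. Order was then asked at 2 stages, and the calls came from the fit without that stage. When the elys set wildtype was the intermediate, 333 genes were rising and 793 falling. The genes in order with either wildtype numbered 170 rising, which is 45.6% of the 373 and 51.1% of the 333, and 395 falling, which is 50.7% of the 779 and 49.8% of the 793. Median-ratio scaling changed the split from 373 against 779 to 650 rising against 504 falling.

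The step from MZnup133 to wildtype was usually the longer one. In rising genes the median difference was -0.65 for MZnup133 minus wildtype and 0.30 for Tgnup133 minus wildtype, and the MZnup133 step was the larger in 314 of 373 genes (84.2%). In falling genes the medians were 0.71 and -0.42, and the MZnup133 step was the larger in 564 of 779 genes (72.4%). Both steps passed the test on their own in 12 rising genes (0.0889%) and 14 falling genes (0.104%). These 26 genes were in order and differed from wildtype in opposite directions in the lines without and with extra nup133. Genes with both steps called but out of order at a stage were not counted. With the elys set wildtype as the intermediate, order was lost for si:dkey-226l10.6, scp2b, fth1a, CU655961.3, si:dkey-238c7.16, btbd3a and si:dkeyp-46h3.3.

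The rising genes with both steps called included epcam, dlst, fabp3, fth1a, sec61b, tmem45a and klf2a. The level of epcam, which encodes an epithelial cell adhesion protein, was 421, 371 and 371 FPKM in MZnup133 at 3, 4 and 4.5 hpf, 847, 639 and 716 in wildtype, and 1045, 935 and 959 in Tgnup133. The lines did not overlap, and the difference was -1.34 ± 0.07 (adjusted p = 7.85e-06), with a Tgnup133 step of 0.42 (adjusted p = 0.0181). The level of dlst, an enzyme subunit of the mitochondrial 2-oxoglutarate dehydrogenase complex, was 5.1, 7.34 and 9.8 FPKM in MZnup133, 26.7, 31.9 and 25 in wildtype, and 61.2, 70.3 and 55.9 in Tgnup133. Here the steps were of closer size, -1.81 below wildtype and 1.14 above it. Melys was also low for dlst, at 3.6, 10.8 and 7.7 FPKM against 22.9, 29.5 and 31.4 in elys set wildtype. For epcam Melys was nearer that wildtype, at 723, 660 and 705 FPKM against 802, 657 and 701. A smaller change was seen for fth1a, the ferritin heavy chain that stores iron, at 388, 591 and 757 FPKM in MZnup133, 437, 759 and 1010 in wildtype, and 638, 1060 and 1305 in Tgnup133, a difference of -0.78 ± 0.09 (adjusted p = 0.000471). For fth1a the elys set wildtype at 3 hpf, 383 FPKM, fell below MZnup133, so its order depended on which wildtype was used.

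The level of the transcription factor gene klf2a climbed with stage in each line. It stood at 0, 1.23 and 2.77 FPKM in MZnup133, at 0.69, 4.63 and 7.29 in wildtype, and at 2.93, 13.0 and 19.7 in Tgnup133. The difference was -2.36 ± 0.26 (adjusted p = 0.000398), and the Tgnup133 step of 1.28 passed the test (adjusted p = 0.0394). In tmem45a, a multi-pass membrane protein gene, MZnup133 was close to 0 at 0.276, 1.01 and 1.07 FPKM, while wildtype was at 25.1, 31.1 and 25.3 and Tgnup133 at 63.1, 69.3 and 62.2 (difference -5.24 ± 0.18, adjusted p = 5.11e-07). The fatty acid binding protein gene fabp3 differed by -1.19 ± 0.10 and sec61b, a subunit of the channel that passes proteins into the endoplasmic reticulum, by -1.13 ± 0.09.

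The 14 falling genes with both steps called included ndufb2, rnaset2, tpi1b, cyp2v1, oxsr1a and atp6v0a2b. The level of ndufb2, an accessory subunit of respiratory complex I, was 42.4, 63.2 and 38.9 FPKM in MZnup133, 17.3, 23.9 and 25 in wildtype, and 3.51, 4.12 and 3.59 in Tgnup133. The difference was 3.35 ± 0.22 (adjusted p = 1.94e-05), and its Tgnup133 step, -2.27 (adjusted p = 0.0011), was the longer of the pair. The gene rnaset2, which encodes a lysosomal ribonuclease, was at 82.2, 111 and 121 FPKM in MZnup133, at 51.1, 65.4 and 85.1 in wildtype, and at 20.0, 24.6 and 19.9 in Tgnup133, again with the longer step in Tgnup133 (-1.58, adjusted p = 0.000958). The glycolytic enzyme gene tpi1b ran from 59.6, 79.4 and 103 FPKM in MZnup133 through 48.9, 54.1 and 61.6 to 22.7, 27.2 and 26.3 in Tgnup133 (difference 1.60 ± 0.15, adjusted p = 0.000179). A proton pump subunit gene, atp6v0a2b, had the longer step in MZnup133, at 1.57 against -0.89 in Tgnup133.

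**Figure D2:**
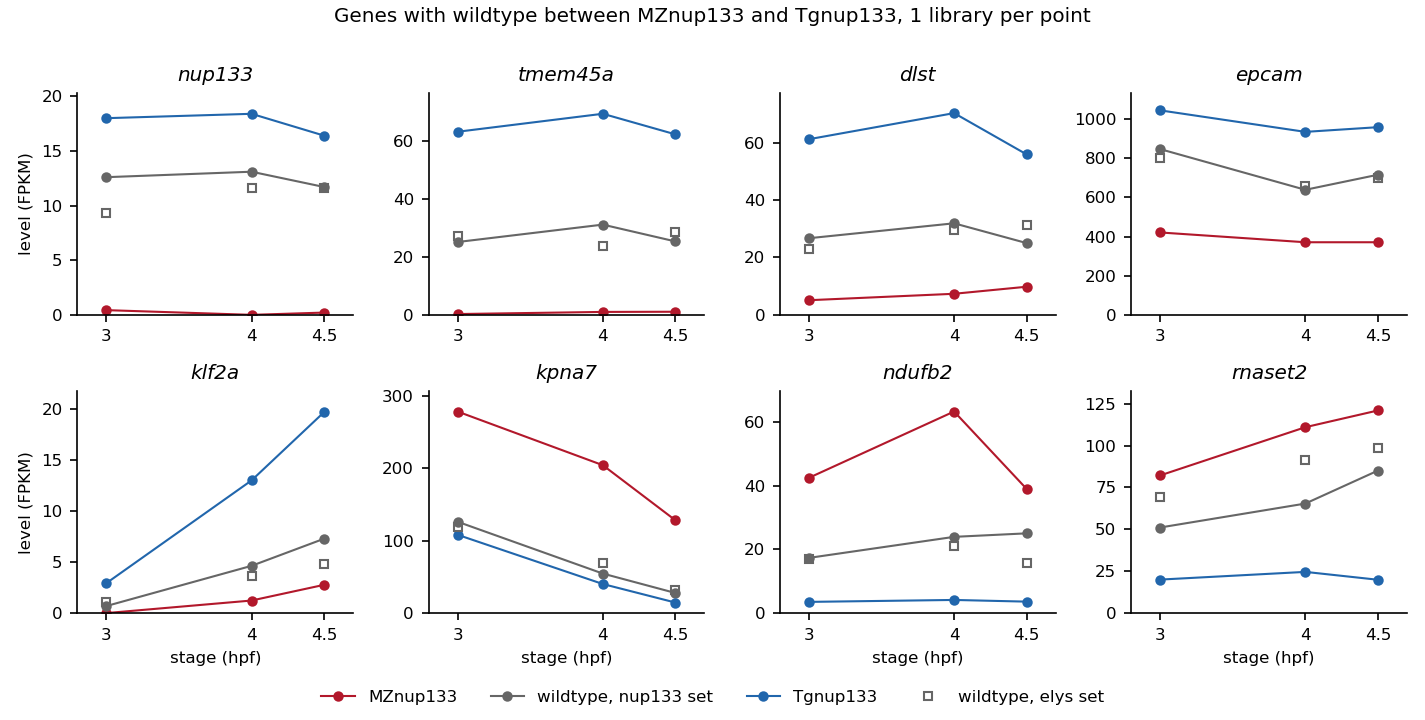
Level in FPKM against stage in hpf for 8 genes in order, with 1 library per point, in MZnup133 (red), wildtype of the nup133 set (grey circles), Tgnup133 (blue) and wildtype of the elys set (open squares). In nup133, tmem45a, dlst, epcam and klf2a Tgnup133 is highest, and in kpna7, ndufb2 and rnaset2 MZnup133 is highest, up to 278 FPKM for kpna7 at 3 hpf.

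The longest rising differences apart from nup133 were in genes at or near 0 in MZnup133. The gene odf3l2a, a relative of an outer dense fiber gene, was listed at 0, 0 and 0.862 FPKM in MZnup133, at 36.1, 41.9 and 44.9 in wildtype, and at 76.8, 81.8 and 74.2 in Tgnup133 (difference -6.00 ± 0.27, adjusted p = 3.03e-06). The translation repressor gene eif4ebp1 was listed at 0 in all 3 MZnup133 libraries, while wildtype had 20.0, 35.5 and 49.8 FPKM and Tgnup133 42.7, 53.1 and 56.3. In both genes wildtype of the elys set lay between the lines as well. Melys shared the low level of odf3l2a, at 0.416, 0 and 2.06 FPKM, but not that of eif4ebp1, at 21.9, 32.5 and 44.7. The complement gene c7b was listed at 0, 0.258 and 0 FPKM in MZnup133, against 21.2, 25.8 and 23.6 in wildtype and 32.9, 30.9 and 30.8 in Tgnup133. The splicing factor gene rnps1 had at most 0.655 FPKM in MZnup133 and 18 to 20.7 in Tgnup133. Another such gene, ppp1r8b, a regulator of protein phosphatase 1, was at 18.5 to 38.6 FPKM in wildtype of the nup133 set but at 0.0668, 0.107 and 1.91 in wildtype of the elys set, so the wildtype series themselves differed there.

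In the falling direction, zgc:101583 was at 37.5, 25.6 and 23.4 FPKM in MZnup133, at 0.897, 1.17 and 0.636 in wildtype and at 0.261, 0.835 and 0.529 in Tgnup133. The wildtype and Tgnup133 levels were close to each other there, and the Tgnup133 step of -0.31 did not pass the test (adjusted p = 0.677). The same held for cnksr1, a scaffold gene of Ras signalling, at 27.5 to 39.3 FPKM in MZnup133 with a Tgnup133 step of -0.16 (adjusted p = 0.814). The fatty acid elongase gene elovl8b had both steps called, from 27.3, 18.8 and 14.3 FPKM in MZnup133 through 5.88, 1.7 and 3.4 to 1.13, 0 and 0 in Tgnup133. Melys was also above elys set wildtype in these genes. It had 12, 14.3 and 11.5 FPKM against 3.97, 3.6 and 2.1 for zgc:101583, and 22.3, 18.6 and 11.3 against 5.15, 2.61 and 2.15 for cnksr1. For elovl8b it had 10.8, 15.5 and 12.7 FPKM against 2.91, 1.52 and 1.58. The RNA-binding protein gene tia1l was unlike these, at 252, 255 and 289 FPKM in MZnup133, 89.5, 130 and 160 in wildtype and 5.87, 0.284 and 1.56 in Tgnup133, with a Tgnup133 step of -5.46 (adjusted p = 0.00687) and an MZnup133 step of 1.1 that did not pass (adjusted p = 0.305). The low level of tia1l was shared by Melys, at 0, 19.3 and 0.674 FPKM, against 111, 122 and 143 in wildtype of the elys set.

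Some genes with a large falling difference carried a symbol shared by 2 identifiers, and their sum told a different order. The falling gene with the largest difference was an identifier of rrm2 (ENSDARG00000078069), the small subunit of ribonucleotide reductase, at 370, 776 and 750 FPKM in MZnup133, 313, 321 and 265 in wildtype, and 1.2, 2.24 and 5.25 in Tgnup133. The other rrm2 identifier (ENSDARG00000020711) went the opposite way, at 429, 34.0 and 41.8 FPKM in MZnup133 against 911, 1242 and 1319 in Tgnup133. Their sum was 799, 810 and 792 FPKM in MZnup133, 736, 770 and 860 in wildtype and 912, 1245 and 1324 in Tgnup133. On the sum, MZnup133 was lower than Tgnup133 by -0.52 ± 0.10 (adjusted p = 0.00678) and differed from wildtype by 0.02 (adjusted p = 0.879), so the sum was not in order. Melys, the elys knockout line, resembled Tgnup133 in both identifiers. It was at 2.96, 2.76 and 7.09 FPKM for ENSDARG00000078069 and at 880, 924 and 993 for ENSDARG00000020711.

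The death-associated protein gene dap1b showed the same kind of split. One identifier (ENSDARG00000109678) fell from 110, 56.0 and 78.2 FPKM in MZnup133 to 0, 0 and 11.1 in Tgnup133, and the other (ENSDARG00000086842) rose from 31.2, 37.6 and 51.0 to 247, 379 and 286. The sum of both was 141, 93.7 and 129 FPKM in MZnup133, 189, 216 and 249 in wildtype and 247, 379 and 297 in Tgnup133, in order and rising, with a difference of -1.34 ± 0.18 (adjusted p = 0.0013). Among the genes tested, 130 symbols were shared by more than 1 identifier, and 6 of them had identifiers called in opposite directions. How the upstream estimation divided reads between these copies was not tested.

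**Figure D3:**
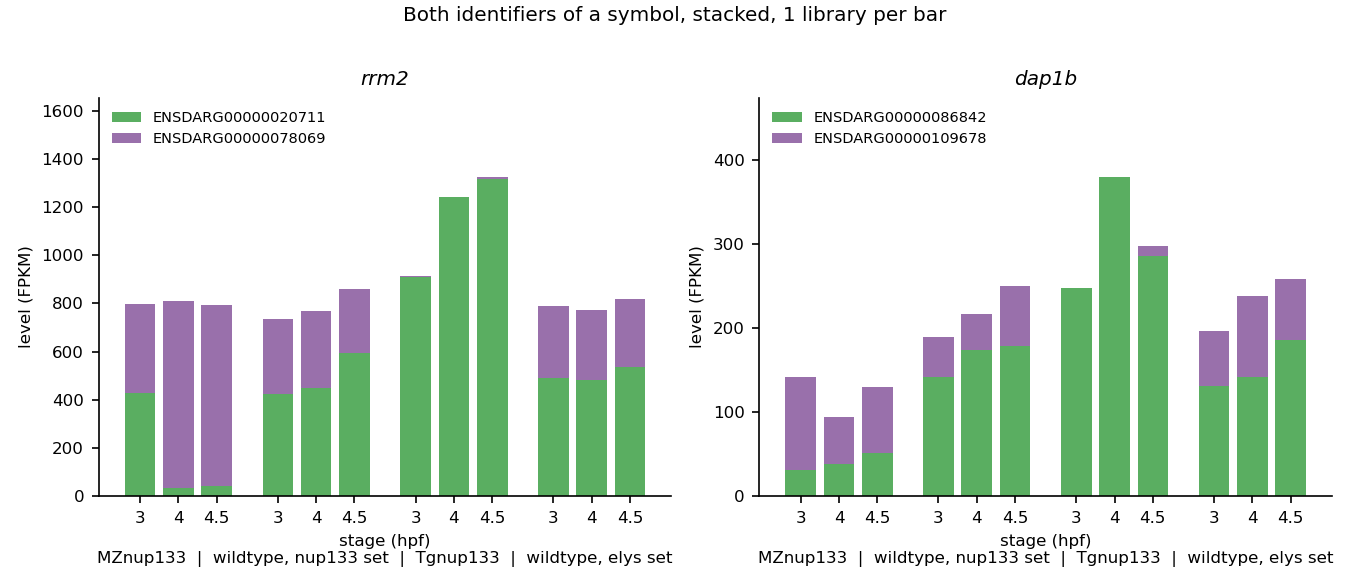
Level in FPKM of both identifiers of rrm2 and of dap1b, stacked, with 1 library per bar, ordered by line and by stage in hpf, with wildtype of the elys set last. In Tgnup133 nearly all of the rrm2 level lies in 1 identifier, at 911 to 1319 FPKM, whereas MZnup133 at 4 and 4.5 hpf has 34.0 and 41.8 FPKM there.

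A few genes differed between MZnup133 and Tgnup133 as present against listed at 0, most of them without an order by dose. There were 11 genes listed at 0 in all 3 MZnup133 libraries and at 10 FPKM or more in all 3 of Tgnup133. In order among them were eif4ebp1, ppp1r8b and ms4a17a.9. The others included xpo6, the export receptor for actin, gtf3ab, a transcription factor gene of the 5S ribosomal RNA genes, mettl2a, a tRNA methyltransferase gene, and ncapg, a condensin subunit. The level of xpo6 was 152, 111 and 34.8 FPKM in wildtype and 136, 47.5 and 22.6 in Tgnup133, so that this wildtype was above Tgnup133. In elys set wildtype it was 120, 54.5 and 18.8 FPKM, below Tgnup133 at 3 and 4.5 hpf. The Tgnup133 step of -0.66 did not pass the test (adjusted p = 0.536). The level of ncapg was 53.0, 67.9 and 61.6 FPKM in wildtype and 18, 22.7 and 20.6 in Tgnup133, where the Tgnup133 step of -1.53 passed the test (adjusted p = 0.0197) in the same direction as the loss in MZnup133. For mettl2a the Tgnup133 step was -0.95 (adjusted p = 0.0304). A listed 0 does not tell a missing transcript from a failed estimate. The loss was shared with the elys knockout line in some of these genes, since Melys was at 0, 0 and 0 FPKM for mettl2a and at 0.127, 0 and 1.73 for ncapg. For xpo6 Melys had 132, 113 and 36.1 FPKM.

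In the other direction, the vesicle fusion gene vamp8 was at 31.6, 33.1 and 24.4 FPKM in MZnup133 and at no more than 0.382 in wildtype and Tgnup133, but Melys stood at 27.9, 33.6 and 30.9 FPKM. The mitochondrial ribosomal gene mrps31 was at 20.5, 27.2 and 26.6 FPKM in MZnup133 and listed at 0 in wildtype of the nup133 set, in Tgnup133 and in Melys.

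The genes of the early embryo were then read through wildtype sets. The zygotic set was made of the 458 genes that started under 1 FPKM at 3 hpf and reached 5 FPKM by 4.5 hpf in wildtype of the elys set. The maternal set was made of the 1544 genes that had no less than 10 FPKM at 3 hpf and lost 1 or more on the log2 scale by 4.5 hpf in those libraries. The sets were measured in the nup133 set, so choice and measurement used different libraries. The median difference of the zygotic set between MZnup133 and Tgnup133 was 0 at 3 hpf, -2.01 at 4 hpf and -1.48 at 4.5 hpf. Genes chosen to be under 1 FPKM at 3 hpf have little room to differ there on the log2(FPKM + 1) scale. The 0 at 3 hpf is therefore tied to the choice of the set, which also limits how many of its genes can be in order at all 3 stages. In Tgnup133 its median lay 0.47 above wildtype at 4 hpf and 0.14 above at 4.5 hpf, against -1.64 and -1.51 for MZnup133 minus wildtype. At 4 hpf 62.9% of the set ran MZnup133, wildtype, Tgnup133 upward, and at 4.5 hpf 50.2%, beside 17.9% and 15.4% of all genes tested. In the fit over 3 stages 118 of the 449 zygotic genes tested were lower in MZnup133 and 3 higher, and 25 were in order and rising, beside 9.62%, 19.0% and 2.76% of all genes tested.

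The maternal set gave the opposite order. Its median difference between MZnup133 and Tgnup133 was 0.06 at 3 hpf, 0.96 at 4 hpf and 1.37 at 4.5 hpf, beside 0, 0.19 and 0.37 over all genes tested. Tgnup133 was below wildtype by a median of -0.24 at 4 hpf and -0.15 at 4.5 hpf. The wildtype series also differed in this set. The elys set wildtype was above that of the nup133 set by a median of 0.2 at 4 hpf and 0.36 at 4.5 hpf. At 4 hpf 59.6% of the maternal set ran MZnup133, wildtype, Tgnup133 downward and at 4.5 hpf 56.7%, beside 29.6% and 32.9% of all genes tested. Of 1543 maternal genes tested, 613 were higher in MZnup133 and 29 lower, and 173 were in order and falling, beside 19.0%, 9.62% and 5.77% of all genes tested. Under median-ratio scaling the medians at 4 and 4.5 hpf were 0.76 and 1, and Tgnup133 minus wildtype at 4.5 hpf was -0.05.

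The share of the FPKM sum told the same order at 4 hpf. The maternal set took 12.17% of the sum in MZnup133, 6.96% in wildtype and 5.73% in Tgnup133, and the zygotic set 0.22%, 1.06% and 1.48%. At 4.5 hpf the maternal shares were 3.13% in wildtype and 2.79% in Tgnup133 against 8.28% in MZnup133, and zygotic shares of 2.44%, 2.72% and 0.99%. The elys set wildtype had a maternal share of 4.23% there, farther from the other wildtype than Tgnup133 was, and a zygotic share of 2.33%. The elys set wildtype had 8.08% maternal and 1.11% zygotic at 4 hpf, so the 2 wildtype libraries differed by about as much as wildtype and Tgnup133 did in the maternal share. With sets chosen in the nup133 set and the elys set wildtype as the intermediate, 55.7% of the zygotic set rose in order at 4 hpf and 60.6% of the maternal set fell in order.

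**Figure D4:**
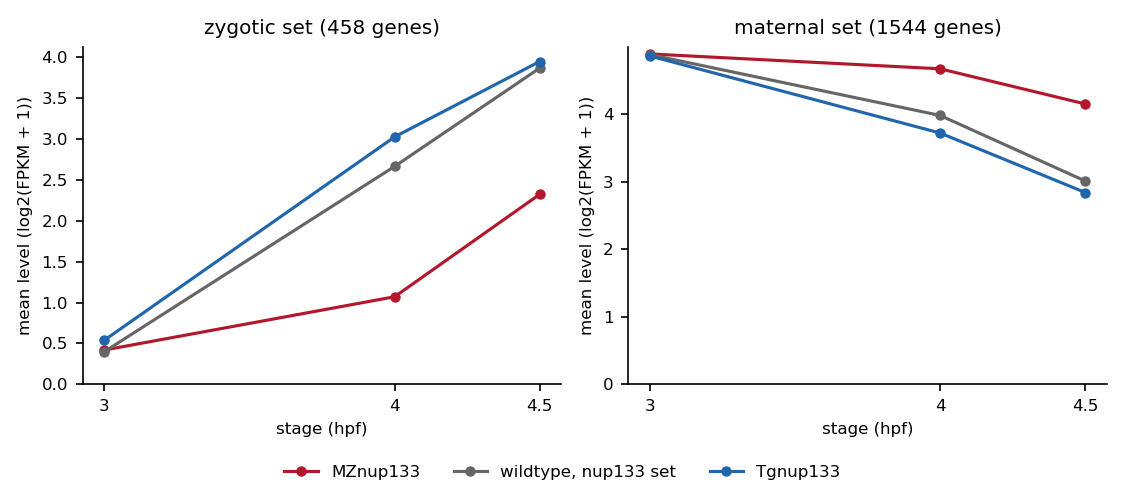
Mean level, as log2(FPKM + 1), of the 458 zygotic and 1544 maternal genes against stage in hpf, with 1 library per point, in MZnup133, wildtype of the nup133 set and Tgnup133. At 4 hpf the zygotic mean is 1.07 in MZnup133, 2.66 in wildtype and 3.02 in Tgnup133, and the maternal mean is 4.67, 3.98 and 3.72.

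Read the other way, the genes in order leaned toward those that change over time in wildtype. In wildtype of the elys set 22.0% of the rising genes rose by at least 1 from 3 to 4.5 hpf (82 of 373) and 14 fell, and 28.8% of the falling genes fell (224 of 779) and 9 rose, beside 10.7% and 17.6% of all genes tested. Called genes outside the order showed like shares, 25.3% of those lower in MZnup133 rising and 32.2% of those higher falling. Most genes in order did not change by that much in wildtype between 3 and 4.5 hpf.

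The early zygotic list held transcripts taken to be made by the embryo at ZGA, and it was chosen with earlier results of these data known. Among its 60 genes tested, 36 were lower and 3 higher in MZnup133 than in Tgnup133, beside 9.62% and 19.0% of all genes tested, with a median of -1.74. Without 4 hpf 2 were called lower and without 4.5 hpf 6, beside 122 and 365 of the 13493 genes tested. In order and rising were noto, wnt11f2, cebpb, lft1, apoeb, krt18a.1, foxd3 and spry2, beside 2.76% of all genes tested. The order of krt18a.1 did not hold with the elys set wildtype as the intermediate. The notochord homeobox gene noto stood at 0, 6.48 and 22.0 FPKM in MZnup133, at 2.32, 54.9 and 146 in wildtype and at 4.04, 74.2 and 157 in Tgnup133 (difference -2.81 ± 0.33, adjusted p = 0.000555), and it was called also without any 1 of the stages. The Wnt ligand gene wnt11f2 was at 0, 3.73 and 5.94 FPKM in MZnup133, 0.964, 10.4 and 40.3 in wildtype and 2.87, 18.9 and 49.8 in Tgnup133, and the transcription factor gene cebpb at 0.847, 13.9 and 39.9, then 2.88, 45.3 and 129, then 8.03, 73.7 and 164. Their adjusted p were 0.00144 and 0.00171, and without 4 hpf 0.0664 and 0.0828. The Nodal inhibitor gene lft1 reached 3.53, 12.9 and 25 FPKM at 4.5 hpf in MZnup133, wildtype and Tgnup133.

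No early zygotic gene passed the test between Tgnup133 and wildtype, where 0.8% of all genes tested were higher and 1.15% lower. The median of the list was 0.31 there. Several strongly lower genes were out of order because Tgnup133 did not exceed wildtype at every stage. The level of nnr was 0, 10.9 and 101 FPKM in MZnup133, 0.702, 261 and 530 in wildtype and 5.55, 294 and 414 in Tgnup133. The small heat shock gene hspb1 was at 2.83, 7.11 and 127 FPKM in MZnup133, 10, 174 and 643 in wildtype, and 6.09, 346 and 1107 in Tgnup133, out of order at 3 hpf. The genes that were higher in MZnup133 were id3, an inhibitor of basic helix-loop-helix factors, at 69.1, 50.4 and 37.3 FPKM against 9.48, 12 and 17.5 in Tgnup133, and her7 and grhl3. In nup133 set wildtype id3 was nearly level at 10.6, 8.56 and 10.8 FPKM, and her7 stood at 0.958, 0 and 0. The gene grhl3, a transcription factor gene of the surface epithelium, ran downward at 4 and 4.5 hpf, from 28.2 and 143 FPKM in MZnup133 through 13.8 and 21.4 to 0 and 0.425 in Tgnup133.

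The patterning lists, which share members with the early zygotic one, had medians of -1.76 for 23 mesoderm and endoderm genes, -1.31 for 15 dorsal organizer genes and -1.23 for 19 ventral and BMP genes. In MZnup133 15, 9 and 6 of them were lower and 0, 0 and 1 higher, beside 9.62% lower and 19.0% higher over all genes. The counts lower were 1, 1 and 2 without 4 hpf and 3, 1 and 1 without 4.5 hpf. They were 16, 11 and 12 without 3 hpf, and 3, 2 and 5 with the 9 libraries of the nup133 set. Over the 13493 genes tested the counts lower were 122 without 4 hpf and 365 without 4.5 hpf. They were 1726 without 3 hpf and 905 with the 9 libraries. The BMP antagonist gene chrd was listed at 0, 0 and 5.8 FPKM in MZnup133, 0, 2.81 and 30.1 in wildtype and 0, 17.6 and 61.2 in Tgnup133. The mesoderm factor gene tbxta was at 0, 6.98 and 15.1 FPKM in MZnup133, 0, 8.76 and 39.8 in wildtype and 1.15, 20.8 and 84.0 in Tgnup133. Both ran upward wherever they were detected in 2 or more lines, although the tie at 3 hpf kept them out of the count. In order at all 3 stages were noto and lft1 in the first list, noto and foxd3 in the second, and klf2a and gata2a in the third. The order of gata2a did not hold with the elys set wildtype as the intermediate. Among all genes tested 2.76% were in order and rising. Of 14 neuroectoderm genes 2 were lower and 2 higher, and none was in order.

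Cells of the enveloping layer, the outer epithelium, and of the yolk syncytial layer, the nuclei beneath the blastoderm, were followed by markers. Of 15 enveloping layer genes 5 were lower, epcam, ppl, krt8, cldne and krt18a.1, and 1 higher, grhl3, beside 9.62% and 19.0% of all genes tested. In order and rising were epcam, ppl and krt18a.1, beside 2.76% of all genes tested, though krt18a.1 was not with the elys set wildtype as the intermediate. The summed level of 9 markers ranged over the stages from 416 to 582 FPKM in MZnup133, from 767 to 1320 in wildtype and from 1050 to 1720 in Tgnup133. Most of that sum was epcam alone, whose values are given above. For the yolk syncytial layer 6 matched markers summed to 0 to 21.0 FPKM in MZnup133, 2.82 to 154 in wildtype and 4.72 to 194 in Tgnup133, and 4 of the 6 were at 0 in MZnup133 at 4.5 hpf and 0 of the 6 in Tgnup133. Of 9 genes of this layer tested 4 were lower, apoeb, mxtx2, mxtx1 and gata5, and 1 higher, fn1a. Over all genes tested the shares were 9.62% and 19.0%. The level of fn1a was 6.06, 4.17 and 2.65 FPKM in MZnup133 and 3.56, 1.81 and 1.28 in Tgnup133. In order and rising was apoeb, at 68.0, 549 and 632 FPKM at 4.5 hpf, beside 2.76% of all genes tested. In RNA of whole embryos, fewer cells of a type and less RNA per cell cannot be told apart. Germ plasm markers summed to 382 to 542 FPKM, 301 to 759 and 236 to 717 in MZnup133, wildtype and Tgnup133. Of 19 genes of that list 2 were higher and 1 lower, beside 19.0% and 9.62% of all genes tested. After median-ratio scaling the counts were 2 and 5, beside 1823 and 2007 of the 13493 genes tested. The 9 markers of blood and adult tissue summed to at most 3.79 FPKM in the MZnup133, Tgnup133 and nup133 set wildtype libraries.

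Of 35 maternal oocyte genes tested 12 were higher in MZnup133 and 0 lower, beside 19.0% and 9.62% of all genes tested. The median was 0.49, and tob1b alone was in order and falling, beside 5.77% of all genes tested. After scaling by median ratios the counts were 8 higher and 4 lower, beside 1823 and 2007 of the 13493 genes tested. Without 4 hpf none was called, beside 136 higher and 122 lower of all genes tested. The level of tob1b, a regulator of mRNA decay, was 170, 166 and 157 FPKM in MZnup133, 125, 133 and 81.1 in wildtype and 110, 123 and 64.1 in Tgnup133 (difference 0.78 ± 0.15, adjusted p = 0.00681). Its order did not hold with the elys set wildtype as the intermediate. The oocyte gene gdf9 was at 39.1, 35.9 and 35.4 FPKM in MZnup133, 24.7, 20.1 and 8.38 in wildtype and 28.9, 15.7 and 7.26 in Tgnup133, out of order at 3 hpf. The zinc finger gene cth1 started alike at 1128, 1114 and 1092 FPKM and stood at 541, 221 and 223 at 4.5 hpf. For cth1 the levels of wildtype and Tgnup133 nearly coincided.

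Regulators of genome activation were called about as often as all genes tested, of which 19.0% were higher and 9.62% lower. Of 16 tested, sox19b, dnmt1, ep300a and ep300b were higher and foxh1 and brd3a lower in MZnup133, and the median of 0.19 was -0.03 after median-ratio scaling. The histone acetyltransferase genes ep300a and ep300b were in order and falling, beside 5.77% of all genes tested. The order of ep300a did not hold with the elys set wildtype as the intermediate. The level of ep300b was 33.1, 29.6 and 24.3 FPKM in MZnup133, 29.5, 24.5 and 14.5 in wildtype and 26.5, 20.7 and 10.7 in Tgnup133. The forkhead gene foxh1, which acts in Nodal signalling, was at 40.1, 50.3 and 55.2 FPKM in MZnup133, below the 78.7 to 101 of Tgnup133 and the 93.0 to 128 of wildtype. The maternal SoxB1 factor gene sox19b was at 561, 504 and 224 FPKM in MZnup133, 653, 282 and 43.7 in wildtype and 607, 159 and 29.4 in Tgnup133, ordered at 4 and 4.5 hpf.

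Of 27 nuclear pore genes tested 5 were higher and 4 lower, beside 19.0% and 9.62% of all genes tested, with a median of 0.03. After scaling by median ratios the counts were 0 and 6, beside 1823 and 2007 of the 13493 genes tested. Besides nup133, nup50 was in order and rising and ndc1 in order and falling, beside 2.76% and 5.77% of all genes tested. The level of nup50, a mobile component of the nuclear basket, was 97.5, 98.6 and 98.7 FPKM in MZnup133, 136, 139 and 152 in wildtype and 166, 180 and 175 in Tgnup133 (difference -0.81 ± 0.08, adjusted p = 0.000263). The membrane-anchored pore protein gene ndc1 ran from 198, 158 and 157 FPKM through 140, 141 and 133 to 119, 124 and 107 (difference 0.54 ± 0.10, adjusted p = 0.00484), a call that was lost without 4 hpf (adjusted p = 0.0743). Within the Y-complex nup107 was higher in MZnup133 than in Tgnup133 by 0.55 ± 0.16, with Tgnup133 at 35.7, 28.8 and 26.1 FPKM and wildtype at 51.0, 49.3 and 40.1, and sec13 was lower by -0.51 ± 0.12.

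Among 35 nuclear transport genes tested 6 were higher and 3, xpo6, ipo9 and ranbp1, lower, shares near the 19.0% and 9.62% of all genes tested. After scaling by median ratios 5 were called higher and 8 lower, beside 1823 and 2007 of the 13493 genes tested. The importin alpha gene kpna7 was in order and falling at 278, 204 and 128 FPKM in MZnup133, 126, 54.5 and 27.7 in wildtype and 108, 40.1 and 14.5 in Tgnup133, a difference of 2.25 ± 0.26 (adjusted p = 0.000568, and 0.0621 without 4 hpf). The importin gene ipo13 was in order too, at 12, 5.78 and 4.16 FPKM at 4.5 hpf, but not with the elys set wildtype as the intermediate. The share of the list in order and falling was near the 5.77% of all genes tested. The importin gene ipo9 was lower in MZnup133 at 10.5, 11.9 and 15.1 FPKM against 33.8, 40.6 and 36.2 in Tgnup133, with wildtype highest at 48.2, 54.8 and 55.8. No nuclear pore or transport gene passed the test between Tgnup133 and wildtype, where 0.8% of all genes tested were higher and 1.15% lower.

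Ribosomal protein genes, the longest of the lists, were often lower in MZnup133. Of 81 tested 45 were lower and 1, rpl10, higher, beside 9.62% and 19.0% of all genes tested, with a median of -0.51 and of -0.74 after median-ratio scaling. In order, rising and called were 19 of 81, beside 2.76% of all genes tested. With the elys set wildtype as the intermediate 6 of 81 were in order, rising and called. Regardless of the call, 20 of 81 held the rising order with the nup133 set wildtype. The level of rps26 was 110, 148 and 200 FPKM in MZnup133, 229, 268 and 306 in wildtype and 288, 305 and 338 in Tgnup133 (difference -1.06 ± 0.11, adjusted p = 0.000289), and that of rpl12 was 670, 724 and 789, then 854, 1050 and 1188, then 866, 1293 and 1534. No ribosomal protein gene passed the test between Tgnup133 and wildtype, where 0.8% of all genes tested were higher and 1.15% lower. The median of the list was 0.18 there. The count lower in MZnup133 was 2 without 4 hpf and 6 without 4.5 hpf, beside 122 and 365 of the 13493 genes tested.

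Mitochondrially encoded transcripts took 5.1% to 6.53% of the FPKM sum in MZnup133, 7.29% to 10.23% in wildtype of the nup133 set and 7.39% to 8.79% in Tgnup133. Of 13 such genes 8 were lower and 0 higher, beside 9.62% and 19.0% of all genes tested, with a median of -0.69. Without 4 hpf 1 was called lower, beside 122 of the 13493 genes tested. The complex I gene mt-nd5 was in order at 478, 393 and 412 FPKM in MZnup133, 594, 598 and 738 in wildtype and 794, 763 and 820 in Tgnup133. Also in order and rising were mt-nd2 and mt-atp6, beside 2.76% of all genes tested. The order of mt-atp6 did not hold with the elys set wildtype as the intermediate. Whether the mitochondrial share of the FPKM sum bears on the levels of the nuclear genes was not tested.

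In the cell cycle list, 15 of 39 genes were lower and 3 higher in MZnup133, beside 9.62% and 19.0% of all genes tested. The count lower was 22 after scaling by median ratios, 2 without 4 hpf and 4 without 4.5 hpf. Over the 13493 genes tested the counts lower were 2007, 122 and 365 in these fits. In order and rising were fbxo5, mcm4, mcm6, mcm7, wee1 and ccne2, beside 2.76% of all genes tested. They include 3 subunits of the replicative helicase. The order of mcm7, wee1 and ccne2 did not hold with the elys set wildtype as the intermediate. In order and falling was cdc25b, an activating phosphatase of cyclin-dependent kinases, beside 5.77% of all genes tested. The inhibitor of the anaphase-promoting complex fbxo5 was at 13.7, 35.5 and 95.0 FPKM in MZnup133, 23.5, 93.0 and 141 in wildtype and 26.1, 132 and 172 in Tgnup133 (difference -1.20 ± 0.22, adjusted p = 0.00497, and 0.112 without 4 hpf). Separase, encoded by espl1, was distinct in that MZnup133, at 11.2, 7.23 and 9.11 FPKM, was near wildtype at 9.37, 7.22 and 6.93, while Tgnup133 stood at 41.4, 34.1 and 30.0. Its Tgnup133 step was 2.03 (adjusted p = 0.000703). The high level of espl1 was shared by Melys, at 46.5, 35.6 and 33.1 FPKM, against 11.3, 13.6 and 10.8 in wildtype of the elys set. Among heat shock and immediate early genes 8 of 17 were lower and 3 higher, beside 9.62% and 19.0% of all genes tested. In order and rising were hsp90ab1, hspa8 and hspd1, beside 2.76% of all genes tested. The level of hsp90ab1 was 246, 315 and 346 FPKM in MZnup133, 398, 583 and 717 in wildtype and 468, 696 and 844 in Tgnup133.

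Of 29 histone and chromatin genes 9 were lower and 4 higher, beside 9.62% and 19.0% of all genes tested. In order and falling were hmgb1b and suz12a, a share near the 5.77% of all genes tested. The chromatin protein gene hmgb1b was at 91.5, 126 and 156 FPKM in MZnup133, 80.2, 104 and 138 in wildtype and 36.1, 65.3 and 103 in Tgnup133, where the Tgnup133 step of -0.74 passed the test (adjusted p = 0.0292) and the MZnup133 step of 0.21 was the shorter. Of 9 interferon response genes the signal transducers stat1a and stat2 were higher and isg15 lower, shares near the 19.0% and 9.62% of all genes tested. In order and falling were stat1a and stat2, beside 5.77% of all genes tested. The order of stat1a did not hold with the elys set wildtype as the intermediate. The level of stat2 was 7.22, 8.47 and 6.49 FPKM in MZnup133, 2.77, 3.6 and 1.6 in wildtype and 1.7, 1.71 and 0.771 in Tgnup133 (difference 1.83 ± 0.30, adjusted p = 0.00289).

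**Figure D5:**
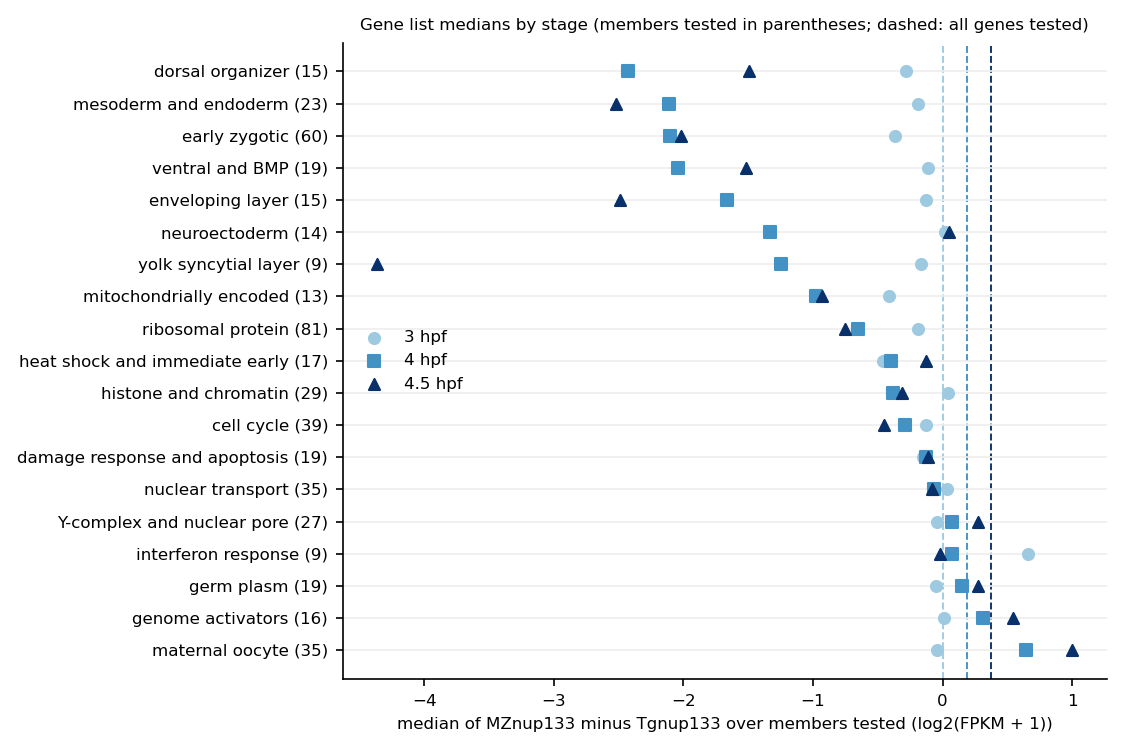
Median of MZnup133 minus Tgnup133, on the log2(FPKM + 1) scale, over the tested members of each gene list at 3 hpf (circles), 4 hpf (squares) and 4.5 hpf (triangles), with the number of members in parentheses and dashed lines for the medians of all genes tested. The yolk syncytial layer list has the lowest point, -4.36 at 4.5 hpf, and the maternal oocyte list the highest, 1.0 at 4.5 hpf.

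Of the genes whose difference between MZnup133 and Tgnup133 changed from 3 to 4.5 hpf, the test called 12 (0.0889%), of which 5 moved up and 7 down, and 3640 genes had an unadjusted p under 0.05. This test took its spread from the pairs of wildtype libraries alone. Some of the genes called were listed at 0 in every wildtype library, where those pairs gave no spread. The gene eif4ebp2, a relative of the translation repressor named above, was in order and falling: it was at 240, 242 and 217 FPKM in MZnup133, at 207, 148 and 57.2 in wildtype, and at 173, 88.0 and 24.9 in Tgnup133. The levels were nearest at 3 hpf and spread apart with stage, a change of 2.61. The early epithelial factor gene klf17 was at 4.6, 122 and 162 FPKM in MZnup133, 17.0, 152 and 89.0 in wildtype and 34.3, 135 and 76.3 in Tgnup133, so that it was rising in order at 3 hpf and falling in order at 4.5 hpf.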

How the data were processed

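Poly(A) RNA-seq of whole zebrafish embryos gave 15 libraries, 1 per genotype, stage and control set. The deposited unit was FPKM, which the authors estimated per gene. The tools listed in the submitters' processing notes are Cufflinks 2.2.1, STAR 2.5.3a and Trim Galore, with build GRCz11, while options and annotation were not stated there. The wildtype columns were assigned to a control set by the leading number shared with the other columns of that set. Of 23800 lines, 74 repeats were dropped. Read counts were not used, so no counting interval is given. Relative depth was taken from the commonest ratio of low FPKM values between libraries.

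Genes averaging 1 FPKM or more, 13493 in number, were tested on the log2(FPKM + 1) scale. The test was two-sided, in limma 3.58.1 under R 4.3.3 with a trended variance, and p-values were adjusted after Benjamini and Hochberg. The fit of all 15 libraries had a level per control set and stage and an effect per line, with 6 residual and 3.52 prior degrees of freedom. The change from 3 to 4.5 hpf came from a second fit, of 12 means (line by stage) plus a term for the control set, with 2 residual and 2.36 prior degrees of freedom. The procedure was tested on simulated data. Members, lists and sets were chosen with earlier results of these data known. Named genes were nup133, the 12 ordered and 6 other called genes with the largest difference in each direction at a mean of at least 5 FPKM, genes listed at 0 in one line, genes whose difference changed, and in each list the 4 with the smallest p and those in order. Genes with both steps called, the copies of rrm2 and dap1b and list members named to describe a count were singled out after their values were seen. Alternatives covered the pseudocount, filter, scaling, libraries, stages and choice of wildtype. Some results are not reported here.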

Additional observations from a re-analysis of the deposited data

Results flagged for a closer look

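The difference between MZnup133 and Tgnup133 changed from 3 to 4.5 hpf in 12 genes by the interaction test of limma, which rests on 1 library of each line at each stage. On the log2(FPKM + 1) scale the change was 2.61 for eif4ebp2, 3.73 for klf17, 5.73 for scamp4, 8.77 for camta1 and 9.85 for BX255897.2. It was -3.16 for dynll2a, -3.86 for rrm2 (ENSDARG00000020711), -4.74 for si:ch211-150o23.2, -6.13 for rpp21, -6.51 for spata6l, -7.36 for hist1h4l and -7.40 for BX649457.1. The genes BX255897.2, camta1, BX649457.1 and hist1h4l were listed at 0 in every wildtype library of both sets. The wildtype pairs gave no spread of their own for these genes, so their calls rest on the spread expected from other genes.

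Several of these rest on the 3 hpf library of MZnup133. There spata6l was at 46.8 FPKM and was then listed at 0, rpp21 was at 87.3 and then at 3.49 and 0.414, si:ch211-150o23.2 was at 44.2 and then at 0, and rrm2 (ENSDARG00000020711) was at 429 and then at 34.0 and 41.8. In the opposite direction scamp4 was at 0.145 FPKM at 3 hpf and at 39.0 and 37.3 later. In wildtype of the nup133 set the same genes stayed between 27.2 and 31.3 FPKM for rpp21, between 29.8 and 49.0 for spata6l and between 14.3 and 23.4 for scamp4. The gene camta1 was listed at 0 in 8 of the 9 libraries of the nup133 set and at 435 FPKM in MZnup133 at 4.5 hpf.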

How the results depend on the processing

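Called genes were sensitive to the stages and libraries in the fit. Leaving out 1 stage moved the count higher in MZnup133 between 136 and 3446 around 2561, and the count lower between 122 and 1726 around 1298. With 9 libraries 1705 were higher, and with the 6 libraries of MZnup133 and Tgnup133 101 were higher and 76 lower. Median-ratio scaling gave 2007 lower. Genes in order ranged without 1 stage from 59 to 964 rising and from 89 to 1848 falling, were 115 and 243 with each step at least 0.2, and 650 and 504 with median-ratio scaling. The count changed from 3 to 4.5 hpf was 12, but 3 with a pseudocount of 0.1, 5 with median-ratio scaling, 70 without the control set term and 1421 without a filter, where genes near 0 enter. A pseudocount of 0.1 gave 1677 genes at least 1 below Tgnup133 at 3 hpf, and median-ratio scaling 2461 above and 2175 below at 4.5 hpf. The zygotic median at 4 hpf was -1.79 with sets chosen in the nup133 set, -3.27 with a pseudocount of 0.1 and -2.12 with median-ratio scaling, and at 4.5 hpf -1.79 and -1.86 under the last 2. The maternal median with that scaling was 0.76 at 4 hpf and 1 at 4.5 hpf. Summing identifiers that share a symbol, chosen after seeing the data, reversed rrm2 (ENSDARG00000078069) to -0.52 and dap1b (ENSDARG00000109678) to -1.34. With 1 stage left out at a time, values of both signs were seen for BX255897.2 (-4.42 to 0.74), scamp4 (-1.5 to 1.36), klf17 (-1.4 to 0.47), isg20 (-2.02 to 0.46) and hist1h4l (-0.13 to 3.55). Of 173 named genes that were called, 62 were called without any 1 of the stages, 110 lost the call without 4 hpf, 83 without 4.5 hpf and 7 without 3 hpf. Apart from the number of libraries and genes tested, the causes were not tested. The labels give no replicate numbers, so no replicate block was fitted, and libraries were paired by stage, which the fit of 6 libraries does on its own. The number of fragments per library is unknown, so the precision of low FPKM values is not known.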

Other observations

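Genes near nup133 in the gene order of the reference table were counted. Of the 50 tested genes nearest to nup133, 25 on each side, 14 (28%) were called between MZnup133 and Tgnup133, beside 29.8% of the 11119 genes placed in that table. The median size of the difference was 0.42 (log2) in these neighbours and 0.49 in all placed genes.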
